A study of Mus musculus with 6 samples.

Results

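The genes described here carry the retinoic acid signal from its precursor to its receptors in mouse fibroblasts. They are the binding proteins *Crabp1*, *Crabp2* and *Rbp4*, the synthesis enzymes *Aldh1a1* and *Aldh1a2*, the receptors *Rara*, *Rarb* and *Rarg*, and the degrading enzyme *Cyp26b1*. These 9 genes, of 25140 in the count table, were found by their symbols. They were chosen by a proposal made with the TGFβ-against-vehicle difference of the same libraries in view. Their values in that comparison are therefore given as a description, without p-values, and supply no evidence of a difference.

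Vitamin A travels in blood as retinol bound to RBP4 and is oxidised in cells to retinal and then, by the retinal dehydrogenases (ALDH1A enzymes), to retinoic acid. Retinoic acid is held in the cytoplasm by the CRABP proteins and acts in the nucleus on the retinoic acid receptors, which bind DNA as pairs with the retinoid X receptors, until CYP26 enzymes oxidise it. In the heart, ALDH1A2 is known as the enzyme of the developing epicardium, the outer layer from which many cardiac fibroblasts descend.

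The series examines RNA in myofibroblast differentiation, the passage of fibroblasts into contractile cells that make matrix. Primary cardiac fibroblasts were isolated from adult hearts of C57BL/6 mice and used at passage 1, and both groups went through the same change from 10% to 1% FBS. The 3 libraries of one group came from cells given vehicle and the 3 of the other from cells given TGFβ at 10 ng/mL for 24 h. The labels put 16 h of low serum before treatment, whereas the study's methods give 24 h for all its experiments. The study's results speak of embryonic fibroblasts for the sequencing, whereas the labels and its methods name cardiac fibroblasts. The study calls the samples biological replicates, and whether each came from a separate animal is not given. The p-values below measure the spread between these libraries, which may be technical.

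The libraries held 27851677 to 31072338 counts each, and 14334 genes had enough counts for the test. TGFβ's own response was present, with 5 of 6 known target genes of the cytokine higher, among them *Ctgf*, *Acta2*, *Tagln* and *Postn*, and *Smad7* not past the test. Fibroblast markers summed to 56662 to 60522 CPM (read counts divided by TMM-adjusted library sizes) with vehicle and 61515 to 64369 with TGFβ, led by *Col1a1*, although 7 of the 10 fell and 3 did not pass the test. Other cell types left smaller sums. The 5 endothelial markers, led by *Cdh5*, summed to 340 to 570 CPM with vehicle and 288 to 440 with TGFβ, and in each group the third column of the table was the highest. The 6 mesothelial markers, led by *Upk3b*, summed to 25.1 to 91.8 and 16.8 to 48.6 CPM, the first column being highest in each group. For all 5 endothelial and all 6 mesothelial markers the vehicle and TGFβ libraries overlapped. In column order the endothelial sums were 340, 384 and 570 CPM with vehicle and 288, 311 and 440 with TGFβ. The mesothelial sums were 91.8, 25.1 and 35.3 with vehicle and 48.6, 16.8 and 20.2 with TGFβ. Both sums were thus lower with TGFβ at every position, although not every marker was and positions need not match replicates. Of the mural markers 2 of 6 rose, with sums of 65.7 to 88.8 and 106 to 151 CPM. The highest over the 6 libraries together was *Cspg4*, at 19.5 CPM with vehicle, where *Myh11* was above it, and 53.3 with TGFβ. Leukocyte markers, led over the 6 libraries together by *Csf1r*, gave 36.7 to 50.0 and 34.8 to 50.0 CPM. Cardiomyocyte markers, nearly all *Tnnt2*, gave 38.1 to 59.3 and 27.1 to 40.2 CPM. Adipocyte markers reached at most 0.101 CPM in any library. In such bulk samples, fewer cells of a type and less RNA per cell cannot be told apart.

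The sequences just before the gene starts are shown for *Rarb*, which was higher with TGFβ, and for 3 genes that were lower, because retinoic acid receptors act through short repeated half-sites there. RefSeq promoters on build GRCm38.p6 matched 8 of the 9 genes, as 14 windows of 250 bases. *Crabp2* had no promoter in the set used and was not searched. Each window was searched on both strands for the receptor half-site AGGTCA, for its variant with the letters GGTTCA, for the further variant AGTTCA, and for pairs of these in the same direction 1, 2 or 5 letters apart. The letters CAGACA and the longer run GTCTAGAC, both known from SMAD proteins, and the AP-1 letters TGACTCA were searched too. A pair contains its own half-sites, so those searches overlap. Capitals mark every match in the sequences below, which run 5′ to 3′ on the gene's strand. The *Rarb* stretch is chr14:16575506-16575535 on the minus strand and lies 59 to 30 bases before the RefSeq start. The *Aldh1a1* window shown is chr19:20492333-20492582 and the *Aldh1a2* window chr9:71215539-71215788, both on the plus strand, and neither overlaps an annotated exon. A further *Aldh1a1* window, chr19:20601718-20601967, is not shown. It matched the start of 1 transcript of the GENCODE annotation, and the window shown matched 0. The annotated gene starts at 20492715, after the RefSeq start of the window shown at 20492583. The *Cyp26b1* stretch is chr6:84593909-84594060 on the minus strand, the part of its window outside annotated exons. The whole *Rarb* window lies in annotated exons of *Rarb* or of the antisense gene *Gm48162*, and only the part around its match is shown. The annotated *Rarb* gene starts far upstream, at 16819156, and the RefSeq start of this window is 16575476, inside the gene. The *Rarb* window matched the start of 2 transcripts of the GENCODE annotation. From which start the counted *Rarb* reads came was not tested.
Rarb: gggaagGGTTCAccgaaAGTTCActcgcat
Aldh1a1: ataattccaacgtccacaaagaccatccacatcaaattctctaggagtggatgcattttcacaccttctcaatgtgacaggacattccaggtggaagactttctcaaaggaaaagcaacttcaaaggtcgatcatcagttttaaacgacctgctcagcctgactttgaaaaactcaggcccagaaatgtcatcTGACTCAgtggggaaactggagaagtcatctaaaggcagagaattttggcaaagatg
Aldh1a2: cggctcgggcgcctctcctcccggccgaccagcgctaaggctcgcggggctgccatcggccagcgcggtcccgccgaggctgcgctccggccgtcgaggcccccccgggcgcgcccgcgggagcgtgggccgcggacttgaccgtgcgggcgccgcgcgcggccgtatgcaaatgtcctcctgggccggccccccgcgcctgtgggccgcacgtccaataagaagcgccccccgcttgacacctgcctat
Cyp26b1: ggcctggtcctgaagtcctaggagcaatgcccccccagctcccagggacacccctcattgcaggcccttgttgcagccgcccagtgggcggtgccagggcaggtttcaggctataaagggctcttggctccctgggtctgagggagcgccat

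*Rarb* alone among the 14 windows held a pair of half-sites 5 letters apart, the letters GGTTCA followed by the variant AGTTCA. Any such pair of the 3 half-sites with that spacing stood in 18 of 32851 promoters searched (0.0548%). The direct repeat of AGGTCA itself with that spacing stood in 3 promoters (0.00913%) and in 0 of the 14 windows. Pairs of unlike half-sites were added to the search after it was planned, so the *Rarb* match is a description only. *Rarb* is a textbook example of a receptor gene with a retinoic acid response element in its promoter. The single half-sites were common, with AGGTCA in 14.0%, GGTTCA in 8.85% and AGTTCA in 11.8% of all promoters. Of the 14 windows, AGGTCA stood in 1, of *Rarg*. GGTTCA and AGTTCA each stood in 2, that of *Rarb* and 1 of *Rara*. TGACTCA, in 4.46% of all promoters, stood in the *Aldh1a1* window shown and in 1 of the *Rbp4* windows. The further *Aldh1a1* window held none of the letters searched. CAGACA (17.1% of promoters) stood in another *Rarg* window and GTCTAGAC (0.167%) in none of the 14. The *Aldh1a2* and *Cyp26b1* windows held none of the letters searched, and 77.6% of the *Aldh1a2* window was G or C, against a median of 52.4% over all promoters. A match is a run of letters and not a measured binding site.

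Among the binding proteins, *Crabp2* differed far more than any other of the 9 genes. CRABP2 (chromosome 3, 87948666 to 87953376, plus strand, in GENCODE M21 on GRCm38) brings retinoic acid to its receptors in the nucleus. The vehicle libraries held 39, 17 and 38 reads of *Crabp2*, and the TGFβ libraries 560, 584 and 1011. Every TGFβ library was at least an order of magnitude above every vehicle library, and the third TGFβ column stood above the other two. In CPM this was 1.02 ± 0.391 (SD, n = 3) against 25.6 ± 8.53, a ratio of means of 25.0. The log2 fold change was 4.63 (SE 0.33), the 8th highest of the genes tested, and 4.32 without the third TGFβ column.

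*Crabp1*, its close relative, is a cytoplasmic retinoic acid binder that delivers its ligand to degrading enzymes (chromosome 9, 54764748 to 54773110, plus strand). It was counted 73, 48 and 26 times with vehicle and 100, 73 and 71 times with TGFβ. In CPM the values were 2.29, 1.62 and 0.872 against 3.66, 2.61 and 2.49, so the groups did not overlap, by a narrow margin. The first column was the highest in both groups, as it was for the mesothelial marker sum. The lowest column was the third for *Crabp1* and the second for that sum, in both groups. The part of mesothelial cells in the *Crabp1* values was not tested. The means were 1.595 ± 0.712 and 2.92 ± 0.640 CPM (SD, n = 3) and the log2 fold change was 0.86 (SE 0.32). It ranged from 0.57 without the third vehicle column to 1.23 without the first.

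Per length, *Crabp1* was the main CRABP transcript with vehicle and *Crabp2* with TGFβ. Levels between genes are compared here only in TPM, counts divided by the length of all annotated exons and scaled to the same total in each library. *Crabp2* made up 29.7 ± 15.3% (SD, n = 3) of the summed CRABP level with vehicle and 83.3 ± 6.19% with TGFβ. The summed level itself went from 11.2 ± 3.73 to 89.1 ± 24.5 TPM. With the longest transcript as the length instead, the third vehicle library had more *Crabp2* than *Crabp1* (55.7%).

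*Rbp4* encodes the carrier of retinol in blood, made mainly by the liver and also by fat (chromosome 19, 38116629 to 38125281, minus strand). It was barely detected, with 4, 6 and 16 reads in libraries given vehicle and 7, 9 and 19 in those given TGFβ. It did not pass the low-count filter, and the third column was the highest in both groups. The groups overlapped, with 26 reads in all with vehicle and 35 with TGFβ. Relative to the groups' total counts, the ratio was 1.41 (95% exact interval 0.827 to 2.45, counting error only). A difference of that size was not detectable at this depth.

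**Figure D1:**
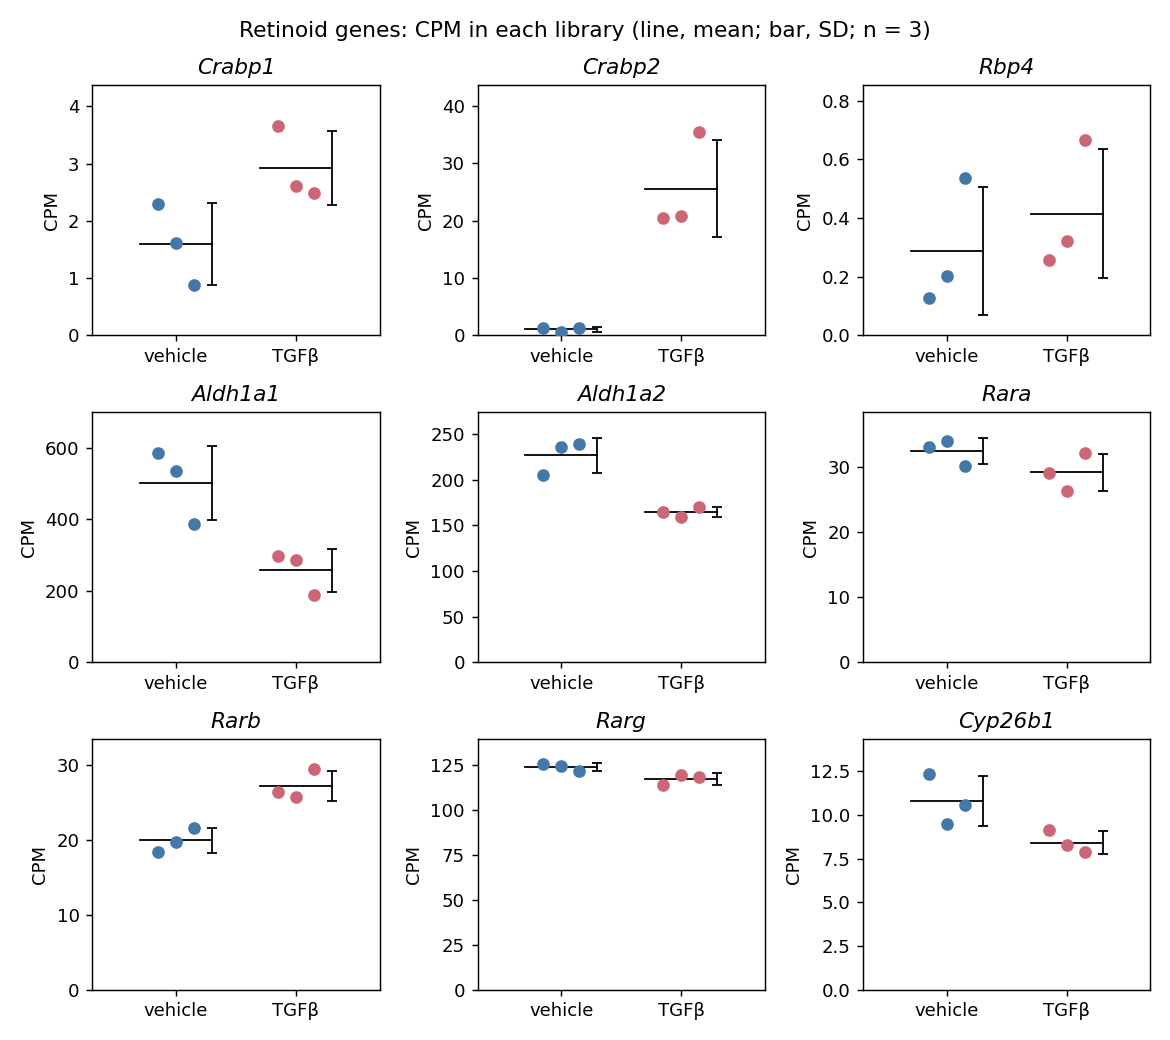
Expression of the 9 genes in CPM (y axes from 0, 1 scale per gene) in the vehicle and TGFβ libraries. Points run left to right in the order of the count columns, which carry no replicate numbers. Lines are means and bars SD (n = 3). *Crabp2* lies between 0.573 and 1.27 CPM with vehicle and between 20.5 and 35.5 with TGFβ, whereas the groups of *Rbp4* and *Rara* overlap.

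Both retinal dehydrogenases, the enzymes that make retinoic acid, had lower counts with TGFβ. *Aldh1a1* (chromosome 19, 20492715 to 20643465, plus strand) was counted 18584, 15826 and 11507 times with vehicle and 8113, 8016 and 5340 times with TGFβ. The third column was the lowest in each group, and the groups did not overlap. The means were 501 ± 103 and 257 ± 60.5 CPM (SD, n = 3), a ratio of 0.513 and a log2 fold change of −0.96 (SE 0.20). The third columns were also those with the most endothelial marker RNA. The first column was the highest for *Aldh1a1* in each group, as it was for the mesothelial marker sum. The lowest column of that sum was the second in each group, unlike that of *Aldh1a1*. The part of other cells in the *Aldh1a1* values was not tested. Of the 75-base windows of the longest *Aldh1a1* transcript, 2.19% also occur in *Aldh1a7*, a close copy that was at 4.42 ± 1.21 CPM with vehicle (SD, n = 3).

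*Aldh1a2* (chromosome 9, 71215789 to 71296243, plus strand) varied less between libraries than *Aldh1a1*. The counts were 6519, 6984 and 7142 with vehicle and 4504, 4445 and 4853 with TGFβ. The lowest vehicle library was 205 CPM and the highest TGFβ library 170 CPM, so the groups were apart. The means were 227 ± 18.9 and 165 ± 5.53 CPM (SD, n = 3), a ratio of 0.727 and a log2 fold change of −0.46 (SE 0.07). Leaving out any 1 library moved this value only between −0.53 and −0.42.

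In TPM the 2 enzymes were level with vehicle, at 412 ± 86.8 for *Aldh1a1* and 406 ± 32.8 for *Aldh1a2* (SD, n = 3). With TGFβ *Aldh1a2* was the higher, at 281 ± 16.0 against 201 ± 46.3 TPM. That order depends on the length used, since with the longest transcript *Aldh1a1* was above *Aldh1a2* in both groups (654 against 308 and 320 against 214 TPM). Together with the third family member, *Aldh1a3*, the summed level was 836 ± 63.3 TPM with vehicle and 507 ± 40.9 with TGFβ. *Aldh1a3* contributed 2.24 ± 0.887% of it with vehicle and 4.90 ± 1.47% with TGFβ.

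The 3 receptors differed in direction and by small amounts. *Rarg* (chromosome 15, 102234938 to 102257517, minus strand), the receptor best known from skin and cartilage, had the most reads. It was counted 3998, 3686 and 3625 times with vehicle and 3109, 3341 and 3374 times with TGFβ. After scaling, this was 126, 124 and 122 CPM against 114, 120 and 118 CPM. All TGFβ libraries were thus lower, by a log2 fold change of only −0.08 (SE 0.04). *Rara* (chromosome 11, 98927818 to 98974942, plus strand), the broadly expressed receptor, was counted 1053, 1007 and 901 times with vehicle and 796, 736 and 915 times with TGFβ. Its CPM values of 33.1, 34.0 and 30.2 overlapped those of 29.1, 26.4 and 32.1 with TGFβ. The log2 fold change was −0.15 (SE 0.08).

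*Rarb*, the receptor whose own gene retinoic acid induces in many cells, was the receptor gene that was higher with TGFβ (chromosome 14, 16430839 to 16819156, minus strand). The counts were 586, 587 and 647 with vehicle and 723, 720 and 840 with TGFβ. All TGFβ libraries, at 25.8 to 29.5 CPM, lay above all vehicle libraries, at 18.4 to 21.7 CPM. The means were 19.97 ± 1.64 and 27.2 ± 1.97 CPM (SD, n = 3), with a log2 fold change of 0.45 (SE 0.08). The promoter printed above with a spaced pair of half-sites is that of this gene.

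A limit applies to the *Rarb* counts. Its 3′ end runs over 4624 bases into *Top2b*, a topoisomerase gene on the other strand, and 52.1% of the 75-base windows of its longest transcript occur, reversed, in *Top2b* transcripts. The libraries were stranded, but whether strand was used in counting is not given in the sources used here. *Top2b* was counted between 4462 and 5626 times per library, with a log2 fold change of −0.07, opposite in sign to that of *Rarb*. The part of *Top2b* reads in the *Rarb* values was not tested.

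Per length, *Rarg* dominated the receptor family in every library. It made up 72.2 ± 0.519% of the summed receptor level with vehicle and 69.9 ± 1.91% with TGFβ (SD, n = 3). The *Rarb* share was 9.42 ± 0.910% with vehicle and 13.1 ± 0.596% with TGFβ, without overlap between the groups. The *Rara* share was 18.4 ± 0.839% and 17.0 ± 1.34%. The sum of the 3 receptors was 163 ± 3.65 and 152 ± 6.69 TPM.

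*Cyp26b1*, which oxidises retinoic acid and so ends its signal, was lower with TGFβ (chromosome 6, 84571414 to 84593908, minus strand). It was counted 392, 282 and 315 times with vehicle and 250, 231 and 224 times with TGFβ. The lowest vehicle library (9.51 CPM) was close to the highest TGFβ library (9.14 CPM). The first column was the highest in each group, at 12.3 and 9.14 CPM, as it was for the mesothelial marker sum. The lowest column of *Cyp26b1* was the second with vehicle and the third with TGFβ, and that of the sum was the second in both. The part of mesothelial cells in the *Cyp26b1* values was not tested. The means were 10.8 ± 1.42 and 8.42 ± 0.654 CPM (SD, n = 3). The log2 fold change was −0.36 (SE 0.11) and −0.25 without the first vehicle column.

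**Figure D2:**
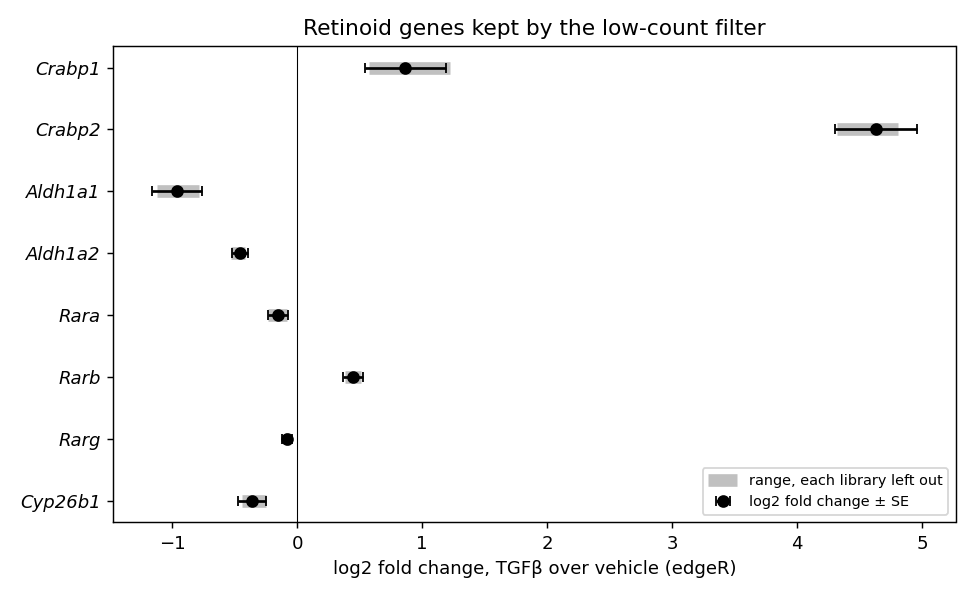
Log2 fold change of TGFβ over vehicle (x axis) for the 8 genes kept by the low-count filter, with the standard error as a bar and, in grey, the range when each library was left out in turn. *Crabp2* stands at 4.63 and every other gene lies between −0.96 and 0.86.

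In the fit over all genes, 5 of the 8 genes kept by the filter had an adjusted p under 0.05, *Crabp2* and *Rarb* higher and *Aldh1a1*, *Aldh1a2* and *Cyp26b1* lower. Over all 14334 genes 40.7% were past it, 20.5% higher and 20.1% lower. The groups did not overlap for 7 of the 8, against 53.3% of all genes tested. The choice of genes rested on this comparison, so these counts are no test of the 9 genes and nothing is read from them. The median log2 fold change of the 8 was −0.12 and that of all genes was −0.001. The count itself shifts with single libraries, since *Cyp26b1* was no longer past the threshold without the first or the third vehicle column or without the second or the third TGFβ column. *Crabp1* was past it in DESeq2, without the low-count filter and without the first vehicle column, and *Rara* only without the third TGFβ column.

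The order of levels across all 9 genes changed most for *Crabp2*. With vehicle the TPM order ran from *Aldh1a1* and *Aldh1a2* to *Rarg* (118 ± 2.73), *Rara* (30.1 ± 2.02), *Rarb* (15.4 ± 1.18), *Cyp26b1* (8.17 ± 1.08), *Crabp1* (8.07 ± 3.63), *Crabp2* (3.14 ± 1.19) and *Rbp4* (0.867 ± 0.651). Neighbours whose libraries overlapped in that order were *Aldh1a1* and *Aldh1a2*, and *Cyp26b1* and *Crabp1*. With TGFβ *Crabp1* passed *Cyp26b1*, and *Crabp2* moved from the eighth place to the fourth, at 75.02 ± 25.9 TPM, below *Rarg* at 106 ± 2.10. Its highest library was level with the lowest of *Rarg*, at 104.9 TPM each. It was followed by *Rara* (25.9 ± 3.09), *Rarb* (19.99 ± 1.79), *Crabp1* (14.1 ± 3.32), *Cyp26b1* (6.08 ± 0.549) and *Rbp4* (1.20 ± 0.649), none of which overlapped the next. With the longest transcript as the length, *Rarb* (25.7) and *Rara* (25.4) were level with TGFβ.

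**Figure D3:**
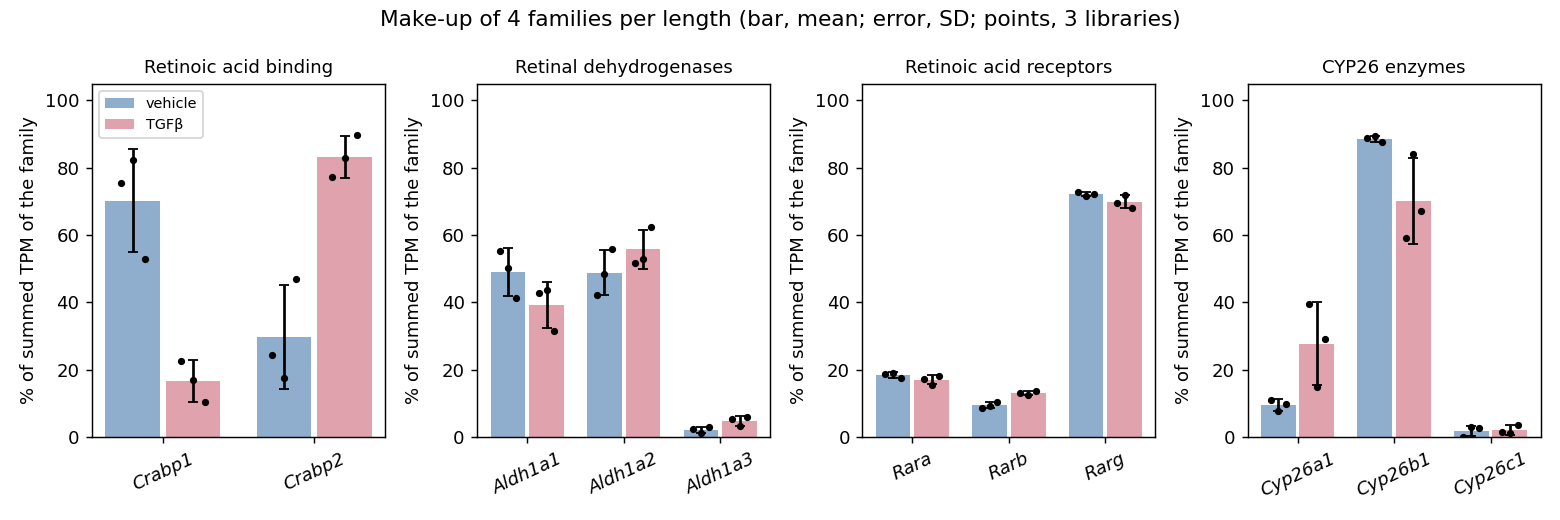
Share of each gene in the summed TPM of its family (y axes, percent) with vehicle and TGFβ, as mean bars with SD and 3 libraries as points. *Crabp2* goes from 29.7% to 83.3% of the CRABP level, while *Rarg* stays the main receptor at 72.2% and 69.9%.

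The genes whose values over the 6 libraries were most like those of *Crabp2* were *Lgr6*, a receptor of R-spondins, *C1qtnf3*, a secreted C1q-like protein, and *Ccl17*, a chemokine. Likeness was the Euclidean distance between log2 values of CPM plus 0.5, centred on each gene's mean. The distances were 1.18 for *Lgr6*, 1.21 for *C1qtnf3* and 1.33 for *Ccl17*. *Lgr6* was counted 16, 23 and 32 times with vehicle and 322, 356 and 418 times with TGFβ. *C1qtnf3* was counted 7, 1 and 12 times with vehicle and 186, 136 and 193 times with TGFβ. *Ccl17* was counted 67, 50 and 41 times with vehicle and 658, 603 and 600 times with TGFβ. *Crabp2* was the one gene of the 9 with a log2 fold change beyond 1, so this search was made for it alone.

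Beyond these genes, 65 others of the retinoid pathway on a list of 73 were in the table and 47 could be tested, 8 of which rose, 16 fell and 23 did not pass the test. That is 51.1% past the threshold, 17.0% higher and 34.0% lower, with a median log2 fold change of −0.03. Of all genes tested 40.7% were past it, 20.5% higher and 20.1% lower, and the counts of each list below stand beside these same shares. Unlike the 9 genes, these other pathway genes are given with adjusted p-values. They come from the quasi-likelihood test of edgeR, adjusted over all genes tested by Benjamini-Hochberg. The list was drawn up with earlier results of these data known and is no independent evidence of a direction.

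Among the genes of uptake and retinol handling, 1 of 5 tested rose and 3 fell. *Lpl*, the lipase that helps cells take up retinyl esters and fatty acids from lipoproteins, fell from 453 ± 110 to 87.4 ± 9.96 CPM (SD, n = 3), by 2.37 on the log2 scale (SE 0.18, adjusted p = 6.53e-05). The groups of *Lpl* were well apart. *Cd36*, a scavenger receptor, fell by 0.81 (adjusted p = 0.000275) and *Scarb1* by 0.16 (adjusted p = 0.0143, and 0.0610 without the second vehicle column). *Stra6*, the cell-surface receptor for the RBP4 complex, was at 0, 0 and 5 reads with vehicle and 2, 1 and 1 with TGFβ, too few to test.

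Of the other genes listed under retinol and retinal enzymes, 1 of 13 tested rose, 2 fell and 10 did not pass the test. *Rdh10*, the main retinol dehydrogenase of the embryo, was at 8.49 ± 1.12 and 9.09 ± 0.388 CPM (SD, n = 3), with a log2 fold change of 0.10 (SE 0.11, adjusted p = 0.490). *Dhrs3*, which reduces retinal back to retinol, was at 213 ± 19.4 and 199 ± 24.6 CPM (log2 fold change −0.10, SE 0.10, adjusted p = 0.474). Their groups overlapped. *Aldh1a3* was counted 743, 380 and 797 times with vehicle and 940, 559 and 970 times with TGFβ, with overlapping groups and a log2 fold change of 0.49 (SE 0.29, adjusted p = 0.213). *Rdh11* rose by 0.30 (adjusted p = 0.0104). *Aldh1a7* fell by 0.88 (adjusted p = 0.0240) and *Adh1*, named after its values were seen since its mean is under 1 CPM, fell by 2.00 (adjusted p = 0.0328) on 1, 6 and 11 reads with TGFβ. The *Aldh1a7* call was lost, with an adjusted p of up to 0.0741, without the first or the second vehicle column or the second or the third TGFβ column. The *Adh1* call was lost, with an adjusted p of up to 0.0894, without the third vehicle or the first or second TGFβ column. *Aldh1a7* was counted 178, 133 and 95 times with vehicle and 79, 71 and 51 times with TGFβ. In each group these counts fell from the first to the third column, as did those of *Aldh1a1*, with which it shares sequence. The part of *Aldh1a1* reads in the *Aldh1a7* values was not tested.

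*Cyp26a1*, the retinoic acid hydroxylase that is itself a classic retinoic acid target, was the only other breakdown gene tested. It was counted 18, 9 and 13 times with vehicle and 62, 15 and 36 times with TGFβ. The second TGFβ library lay inside the vehicle range in CPM, so the groups overlapped. The log2 fold change was 1.62 (SE 0.52, adjusted p = 0.0394). The call was lost in limma-voom and when any library but the second TGFβ column was left out, with an adjusted p of up to 0.129. Per length, *Cyp26b1* was the main CYP26 transcript in all libraries, with 88.7 ± 0.893% of the family's level with vehicle and 70.1 ± 12.8% with TGFβ.

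Of the receptor partners and coregulators, 1 of 15 rose and 8 fell. *Rxra*, the main retinoid X receptor here, fell from 115 ± 2.54 to 88.2 ± 5.09 CPM (SD, n = 3), by 0.38 on the log2 scale (SE 0.05, adjusted p = 0.000782). *Rxrb* was at 40.7 ± 0.848 and 38.7 ± 1.51 CPM, with overlapping groups (log2 fold change −0.08, SE 0.05, adjusted p = 0.223). *Rxrg* had 4, 8 and 4 reads with vehicle and 1, 3 and 3 with TGFβ and was not tested. *Tbl1xr1*, a subunit of a nuclear receptor corepressor complex, fell by 0.56 (adjusted p = 8.54e-05). *Fabp5*, a fatty acid binder that can also carry retinoic acid, fell by 0.75 (adjusted p = 0.00445). The coactivators *Ncoa1*, *Ncoa2* and *Ncoa3* fell by 0.27, 0.25 and 0.19 and the corepressor *Nrip1* by 0.21. The adjusted p-values of these 4 were 0.0152, 0.0362, 0.0293 and 0.0214. All 4 calls were lost without the second vehicle column, with an adjusted p of up to 0.0550, 0.110, 0.101 and 0.0796 over the alternatives. *Ncoa2* was also lost without the first vehicle column, and *Ncoa3* and *Nrip1* without the third vehicle, the first TGFβ or the third TGFβ column.

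Genes known to respond to retinoic acid moved in both directions, with 6 of 17 tested higher and 4 lower, *Cyp26a1* and *Nrip1* among them. *Ret*, a receptor tyrosine kinase, was counted 41, 40 and 45 times with vehicle and 91, 104 and 90 times with TGFβ, a rise of 1.30 on the log2 scale (SE 0.15, adjusted p = 0.000394). The transcription regulators *Bhlhe40* and *Nr2f1* rose by 0.43 (adjusted p = 0.000708) and 0.26 (adjusted p = 0.0248), and *Tgm2*, tissue transglutaminase, by 0.25 (adjusted p = 0.00799). *Nr2f2*, an orphan receptor, fell from 67.8 ± 5.19 to 45.5 ± 2.64 CPM (SD, n = 3), by 0.58 (adjusted p = 0.000446). *Rarres1* and *Rarres2*, both named for their response to retinoids, fell by 0.94 (adjusted p = 0.0362) and 0.89 (adjusted p = 0.0232). The *Rarres1* groups overlapped. Both calls were lost without the third vehicle or the first or second TGFβ column, and that of *Rarres1* also without the first vehicle column, with an adjusted p of up to 0.119 and 0.0834. The *Nr2f1* call was lost in DESeq2 and without the first or second column of either group (adjusted p up to 0.0870).

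**Figure D4:**
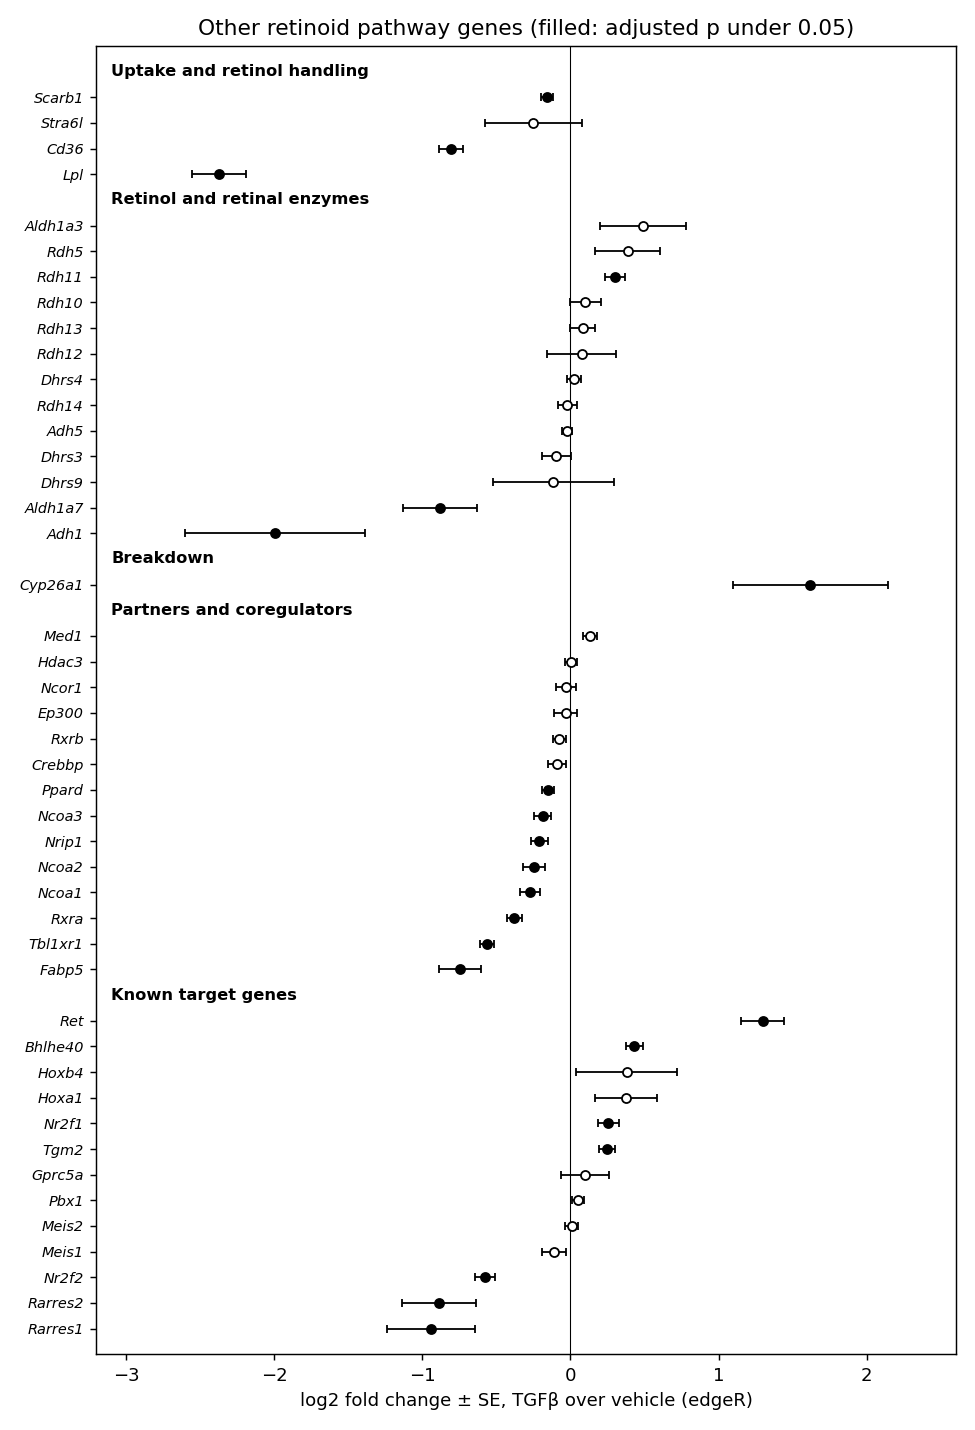
Log2 fold change of TGFβ over vehicle (x axis, bars SE) for 45 of the 47 other pathway genes tested, by list, each gene shown once; filled points are past an adjusted p of 0.05. *Lpl* lies farthest to the left at −2.37 and *Cyp26a1*, with a wide error, farthest to the right at 1.62.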

How the data were processed

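Polyadenylated RNA was prepared by the authors as stranded libraries, read as single 75-base ends and aligned to mm10. The read counter, its strand setting and the DESeq2 version are not given in the sources used here. The authors deposited 1 table of whole-number counts per gene with 3 vehicle and 3 TGFβ columns. Its further columns hold the authors' own comparison (a mean, fold change, p and adjusted p) and were not used. Columns carry the treatment but no replicate number, so they are named by position and were not paired.

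The counts were fitted with edgeR 4.0.16 (R 4.3.3): TMM scaling, filterByExpr on the group, quasi-likelihood test and Benjamini-Hochberg adjustment over 14334 genes. TPM used exon lengths of GENCODE M21. In simulated counts of 25140 genes, 66, 67 and 67 genes that passed the filter were changed by 0.5, 1 and 2 on the log2 scale. The fit recovered 63.6%, 80.6% and 94.0% of them, and 8.62% of its calls were false. Far fewer genes were changed there than the 5828 called in the data, so these rates need not hold for the data. Counting error weighs most on genes with few reads.

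The 9 genes and all lists were chosen with earlier results of these data known. Genes named beside the 9 were up to 8 per pathway list that passed the test and averaged 1 CPM or more, by size of change, 9 pathway genes regardless of value, the 3 genes most like each gene beyond a log2 fold change of 1, and the highest marker of each list. Pairs of unlike half-sites were added to the motif search later. Alternatives were DESeq2 size factors, upper quartile scaling, DESeq2 1.42.0, limma-voom (limma 3.58.1), no filter, 1 CPM in 3 libraries, each library left out, and transcript length. Protein sequences were not used here. A few listed genes are counted but their own values are not reported here. Of the pathway list, 8 symbols were not analysed here.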

Additional observations from a re-analysis of the deposited data

How the results depend on the processing

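All 8 tested genes of the 9 kept their direction under every scaling, filter, test and left-out library tried. The genes were chosen on this comparison and the groups of most of them did not overlap. Leaving out 1 library could therefore hardly reverse a sign, and the kept directions are no evidence of a difference. With all libraries kept, scaling, filter and test settings moved their log2 fold changes little. The range was 4.61 to 4.66 for *Crabp2* and −0.99 to −0.96 for *Aldh1a1*. Of the other pathway genes, 10 to 13 instead of 16 were lower when 1 library was left out, with 10 both without the third vehicle column and without the first TGFβ column, and 6 to 8 instead of 8 were higher. Over all genes, 4489 to 5481 calls were made instead of 5828. Fewer libraries enter those fits. Levels per length, and the order of *Aldh1a1* and *Aldh1a2*, depend on the transcript length used. No paired analysis was possible by replicate number because the count columns carry no replicate numbers. In CPM, the columns of *Aldh1a1*, *Crabp1* and *Rbp4* ranked in the same order in both groups. So did the endothelial and mesothelial marker sums, whereas the other genes of the 9 did not. Pairing by column position was not tested. The SDs, SEs and group overlaps given here therefore include any spread that columns of the same position share. Depth limits genes with few reads, such as *Rbp4* with 26 and 35 reads per group.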
